A study of Homo sapiens with 2 samples.

Results

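The 8 keratin genes KRT7, KRT8, KRT10, KRT18, KRT19, KRT23, KRT80 and KRT81 were followed through the cell groups of vehicle-treated HepaRG cultures. They were taken by symbol from the 36601 genes of the feature table, which lists 50 keratin genes in all. HepaRG is a human liver tumour line that is grown into a mixture of hepatocyte-like and other epithelial cells and is used in toxicology in place of primary hepatocytes. The cells were bought terminally differentiated, kept for 7 days in culture and exposed to 0.1% DMSO, the vehicle, for 24 h; they were then dissociated in the presence of actinomycin D and anisomycin, which block transcription and translation, and fixed. The 2 libraries (replicates 1 and 2, 10x Genomics 3′ v3.1 chemistry, 10000 cells loaded in each) carry the same label for the biological replicate, so the spread between them may be technical. Before dissociation, no chemical other than DMSO was given to these cultures as an exposure. The comparisons are between groups of cells within each library.

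Keratins are the intermediate filament proteins of epithelial cells. A filament needs both partners, an acidic type I keratin (KRT10, KRT18, KRT19 and KRT23 here) and a basic type II keratin (KRT7, KRT8, KRT80 and KRT81), and a partner that is left unpaired is degraded. In the liver, hepatocytes are known for the KRT8 and KRT18 pair alone, whereas bile duct cells and progenitors add KRT7 and KRT19. KRT10 belongs to the upper layers of the epidermis and KRT81 to hair, so the 8 genes are keratins by sequence family but not all are keratins of simple epithelia.

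The cells were divided by genes that are not keratins. ALB-high cells had at least 50 UMIs (unique molecular identifiers, the count of captured transcripts) of ALB, the albumin gene, per 10000 UMIs. Matrix-high cells were the top 20% of each library by the mean of ln(1 + UMIs per 10000) over COL3A1, SPARC, LUM and PDGFRB, genes of extracellular matrix and its producing cells, less the ALB-high cells. All others are called remaining cells. Replicate 1 held 306 ALB-high, 889 matrix-high and 3259 remaining cells, and replicate 2 held 407, 967 and 3520. The cuts fall within a range and not between separate populations: 43 cells of replicate 1 and 50 of replicate 2 had ALB between 40 and 50 UMIs per 10000, and 474 and 499 cells lay within 0.1 below the cut on the matrix score.

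Apart from ALB itself, all 14 hepatocyte markers were higher in ALB-high than in remaining cells in both libraries, with a summed level of 10294 and 9825 CPM (UMIs per 1000000 UMIs of the cell group) in ALB-high cells and 830 and 889 CPM in remaining cells. Matrix-high cells were higher in both libraries for 5 of the 8 mesenchymal markers that did not define them, POSTN and DCN among them. The collagen gene COL1A2 stood at 0 and 0.29 CPM in them, and the fibroblast marker THY1 had 0 UMIs in both libraries. Both genes were near 0 in every group, so they do not tell the groups apart. KRT19 stood above 900 CPM in matrix-high cells. These cells are named here by their defining genes and not as mesenchymal cells. Of the biliary markers outside the keratins, EPCAM, CFTR and AQP1 were each below 0.6 CPM in every group, and the keratinocyte gene KRT1 had 0 UMIs throughout. Markers of 1 list differed widely in level: among the proliferation markers, TOP2A had 453 and 442 CPM over all kept cells but UBE2C 0.200 and 0.246 CPM. A low count of a single marker is therefore not read as absence. The mitochondrial share of UMIs differed between groups, with medians of 13.5% and 13.6% in ALB-high cells, 8.31% and 8.46% in matrix-high cells and 8.84% and 8.98% in remaining cells. The 11 proliferation markers summed to 899 and 846 CPM in ALB-high cells, 1986 and 2080 CPM in matrix-high cells and 2235 and 2218 CPM in remaining cells. Their part in the keratin differences is given below where an alternative bears on it and was otherwise not tested.

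Of the 8 genes, 5 lie in the keratin cluster of chromosome 12 and 3 in that of chromosome 17 (GRCh38, GENCODE 29). KRT18, the type I exception on chromosome 12 (chr12:52948871-52952901, plus strand), lies beside its partner KRT8 (chr12:52897187-52949954, minus strand), and the annotated genes overlap by 1084 bases on opposite strands. KRT7 (chr12:52232520-52252186, plus strand), KRT80 (chr12:52168996-52192000, minus strand) and KRT81 (chr12:52285913-52291534, minus strand) are near each other. The annotated KRT86 gene overlaps KRT81 on the opposite strand and KRT7 on the same strand. KRT19 (chr17:41523617-41528308), KRT10 (chr17:40818117-40822595) and KRT23 (chr17:40922696-40937634) are all on the minus strand. In the last 500 bases of their transcripts, where a 3′ assay reads, 17.1% of the 50-base windows of KRT8, 19.1% of those of KRT18 and 17.7% of those of KRT81 also occur in another transcript; for KRT81, 82 windows are shared with KRT86. Reads from those windows can be lost or misassigned, so levels of KRT8, KRT18 and KRT81 are uncertain by an unknown factor, and whether it differs between cell groups was not tested. For KRT7, 1.25% of the windows are shared, and the effect of its overlap with KRT86 on its level was not tested.

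RefSeq's promoter table (GRCh38.p14) held 2 of the 8 genes, KRT8, whose level differed between the cell groups, and KRT10, whose level differed least. Each sequence runs from 250 bases before to 50 bases after the annotated start, on the minus strand. The KRT8 window is chr12:52926420-52926719 and takes in the start of 1 of 17 GENCODE transcripts; the capitals mark CCGGAA, the core of an ETS factor site, read on the other strand. The KRT10 window is chr17:40822565-40822864, and the capitals mark a CCAAT box read on the other strand and a TATAAA box.
KRT8: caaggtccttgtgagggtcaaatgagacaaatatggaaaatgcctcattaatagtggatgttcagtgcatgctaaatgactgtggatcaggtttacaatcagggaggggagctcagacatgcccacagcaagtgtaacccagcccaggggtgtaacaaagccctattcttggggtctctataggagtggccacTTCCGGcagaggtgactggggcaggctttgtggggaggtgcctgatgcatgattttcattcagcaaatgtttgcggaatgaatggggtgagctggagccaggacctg
KRT10: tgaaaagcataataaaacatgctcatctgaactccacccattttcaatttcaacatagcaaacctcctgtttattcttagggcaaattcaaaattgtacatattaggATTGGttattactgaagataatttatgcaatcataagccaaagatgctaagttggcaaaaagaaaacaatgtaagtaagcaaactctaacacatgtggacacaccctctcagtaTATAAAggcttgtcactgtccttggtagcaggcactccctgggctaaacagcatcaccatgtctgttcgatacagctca
The TATAAA box of KRT10 begins 29 bases before the start; among 35116 promoters of this length 11.5% hold TATAAA, 34.6% CCAAT and 17.2% CCGGAA on either strand. GGGCGG and TGANTCA, found in 44.95% and 7.71% of the promoters, had no match in either window.

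Over all kept cells, KRT8 had 714 and 705 CPM, KRT19 615 and 618 CPM, KRT18 376 and 389 CPM and KRT10 205 and 219 CPM in replicates 1 and 2. KRT81 followed with 19.3 and 16.3 CPM, KRT7 with 3.82 and 3.88 CPM and KRT80 with 0.800 and 0.789 CPM, while KRT23 had 5 UMIs in replicate 1 and 1 UMI in replicate 2. These are counts of 3′ ends with no correction for length, so the order is one of captured molecules. The libraries differed by less than 10% of the level for KRT7, KRT8, KRT10, KRT18, KRT19 and KRT80. The 8 genes carried 98.2% of all keratin UMIs in both libraries, and KRT8, KRT18 and KRT19 together 86.5% and 86.2%. Of the 42 other keratins, 7 reached 1 CPM in a library.

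**Figure D1:**
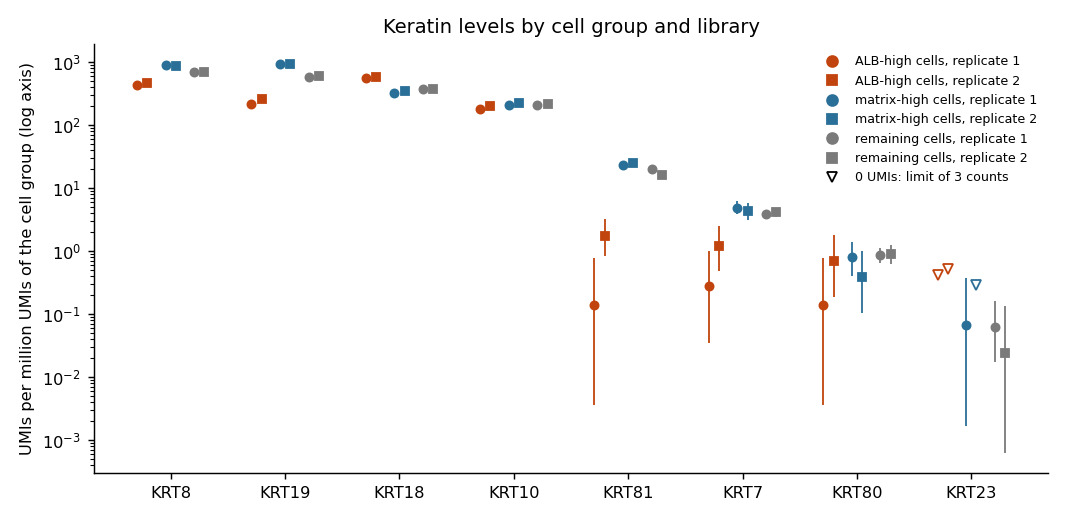
Level of each keratin in ALB-high, matrix-high and remaining cells (CPM, log axis), 1 point per library, with exact 95% Poisson intervals that cover counting error only; open triangles mark 0 UMIs at the limit of 3 counts. KRT8 and KRT19 are highest in matrix-high and lowest in ALB-high cells, KRT18 is highest in ALB-high cells, and KRT10 lies between 179 and 224 CPM in every group.

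In ALB-high cells the keratins other than KRT18 were at or below their level in remaining cells, and KRT18 was above it. Of 7 members tested, 1 was higher (28% of all 17193 genes tested were called higher) and 4 were lower (27.8% of all genes were called lower), so the counts say little about keratins as a class and the results rest on the single genes. KRT23 did not pass the filter on low counts. Tests were edgeR's quasi-likelihood test on counts summed per library and cell group, with the library as a block and Benjamini-Hochberg adjustment over all genes. The fit of these groups had 2 residual degrees of freedom and 26.8 prior ones taken from all genes. Its p-values therefore rest on all genes more than on the libraries, whose spread may be technical.

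KRT18, the type I partner of KRT8 in hepatocytes, had 553 and 581 CPM in ALB-high cells, against 368 and 373 CPM in remaining cells. The groups did not overlap, and the log2 fold change was 0.75 ± 0.04 (SE, edgeR adjusted p = 3.5e-15). KRT8, the type II partner, went the other way, with 428 and 467 CPM in ALB-high cells and 701 and 694 CPM in remaining cells. Its log2 fold change was -0.50 ± 0.05 (edgeR adjusted p = 7.6e-11), and again both ALB-high values lay below both values of the remaining cells. How many of all genes lack such overlap was not computed.

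KRT19, the small type I keratin of bile ducts, had 217 and 261 CPM in ALB-high cells and 582 and 592 CPM in remaining cells, a log2 fold change of -1.16 ± 0.05 (edgeR adjusted p = 9.2e-18). It was the abundant keratin with the largest fall, yet it was not absent. After each cell was thinned to 4000 UMIs, 47.9% and 51.2% of ALB-high cells still had a KRT19 UMI, against 68.0% and 68.6% of remaining cells. Free RNA from other cells can give such UMIs, and its part in the KRT19 level was not tested. KRT19 in ALB-high cells stood at 35.4% and 42.3% of its level in the whole library, against 0.734% and 10.6% for KRT81, 7.41% and 12.8% for POSTN, 14.8% and 16.9% for DCN, 19.7% and 27.9% for SPARC and 20.5% and 31.2% for LUM. POSTN, DCN, SPARC and LUM are matrix genes, and SPARC and LUM are among those that define matrix-high cells. The other defining genes, COL3A1 and PDGFRB, stood at 5.20% and 15.0% and at 0% and 8.99%. Among the keratins, KRT7 stood at 7.41% and 31.4%, KRT80 at 17.7% and 88.2% and KRT8 at 59.9% and 66.3%.

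KRT81, the hair keratin, was the gene of the set that differed most: 1 UMI (0.142 CPM) and 10 UMIs (1.74 CPM) in ALB-high cells, against 20.4 and 16.2 CPM in remaining cells. The fitted log2 fold change was -4.29 ± 0.31 (edgeR adjusted p = 4.1e-13), but its size depends on the library. The ratio of ALB-high to remaining cells was 0.00695 in replicate 1 (95% counting interval 0.000176 to 0.0388) and 0.107 in replicate 2 (0.0511 to 0.198), or -7.04 and -3.08 as TMM-scaled log2 ratios. The fitted value was -2.55 over cells with at most 10% mitochondrial UMIs, where ALB-high cells had 0 and 8 KRT81 UMIs, and -7.30 without the 5% deepest cells. KRT7, the type II keratin that pairs with KRT19 in bile ducts, had 2 and 7 UMIs (0.283 and 1.22 CPM) in ALB-high cells, against 3.96 and 4.15 CPM in remaining cells. Its log2 fold change was -2.38 ± 0.39 (edgeR adjusted p = 5.6e-06), with -3.67 in replicate 1 alone and -1.63 in replicate 2 alone. Over cells with at most 10% mitochondrial UMIs, ALB-high cells had 0 KRT7 UMIs of 821083 and of 1043854 UMIs in all, too few for a fold change.

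KRT10 had 179 and 201 CPM in ALB-high cells and 207 and 220 CPM in remaining cells, with a log2 fold change of -0.04 ± 0.05 (edgeR adjusted p = 0.56). KRT80 had 1 and 4 UMIs in ALB-high cells, and its log2 fold change of -1.03 ± 0.64 did not pass (edgeR adjusted p = 0.18; -2.49 in replicate 1 alone and -0.23 in replicate 2 alone). KRT23 had 0 UMIs in ALB-high cells of both libraries, which allows up to 0.425 and 0.522 CPM, more than its level in any other group, so no difference was detectable at this depth. TMM scaling shifted all genes by 0.14 (log2) relative to CPM in this comparison, which is why KRT10 is lower in CPM than its fold change shows.

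**Figure D2:**
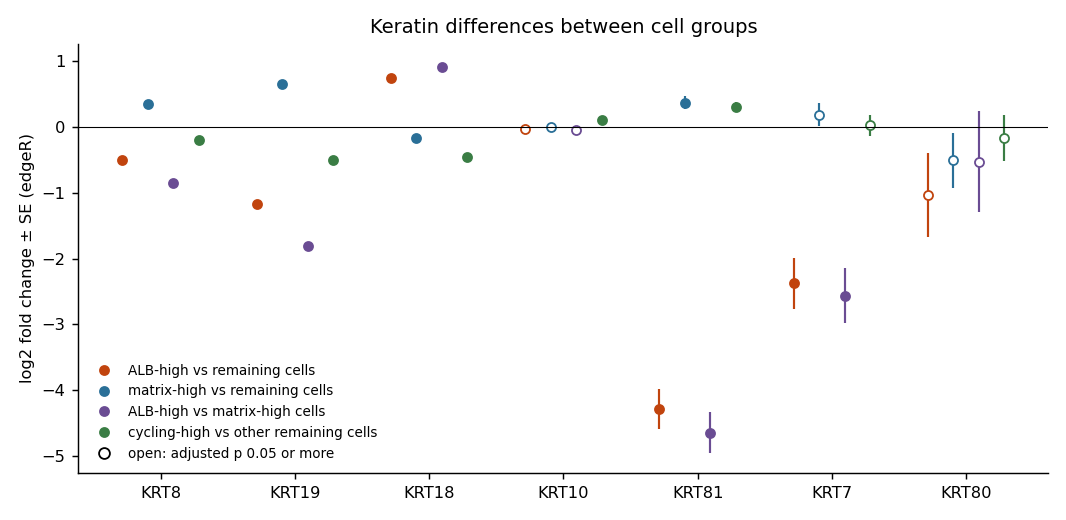
Log2 fold change (edgeR, ± SE, from sums of 2 libraries) of the 7 tested keratins in 4 comparisons, first-named group over second; filled points have an adjusted p below 0.05. KRT18 is the one keratin above 0 in ALB-high cells, and KRT8 and KRT19 fall on opposite sides of 0 in ALB-high and matrix-high cells.

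The opposite moves of KRT8 and KRT18 changed the balance between partners. KRT8 had 0.774 and 0.804 UMIs per KRT18 UMI in ALB-high cells (0.789 ± 0.022, SD, n = 2), 2.79 and 2.57 in matrix-high cells (2.68 ± 0.16, SD, n = 2) and 1.90 and 1.86 in remaining cells (1.88 ± 0.03, SD, n = 2). No 2 groups overlapped in this ratio, but the spread between libraries may be technical. How many pairs of genes lack such overlap was not computed. In cells thinned to 4000 UMIs, KRT18 exceeded KRT8 in 43.0% and 47.5% of ALB-high cells, in 12.2% and 13.5% of matrix-high cells and in 17.6% and 20.2% of remaining cells. Summed over the 8 genes, type I UMIs per type II UMI came to 2.21 in ALB-high cells of both libraries, 1.58 and 1.63 in matrix-high cells and 1.59 and 1.66 in remaining cells. By this sum matrix-high and remaining cells overlapped. The ratio of KRT8 to KRT18 is one of captured 3′ ends, and its absolute value carries the shared-sequence uncertainty of both genes.

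Along ALB the change was gradual and began below the cut. KRT8 had 792 and 783 CPM in cells with under 1 ALB UMI per 10000, 515 and 522 CPM between 5 and 20, and 414 and 458 CPM at 200 or more. KRT19 had 709 and 717 CPM, 377 and 427 CPM, and 182 and 223 CPM in the same bins. KRT18 stayed between 339 and 401 CPM in every bin below 50 and reached 631 and 679 CPM at 200 or more. KRT8 and KRT19 were already low in bins where KRT18 was not yet high, and KRT8 per KRT18 UMI was 2.18 and 2.15 in the lowest bin and 0.656 and 0.675 in the highest. KRT81 had 26.0 and 22.6 CPM below 1 ALB UMI per 10000, 11.96 and 13.4 CPM between 1 and 5, and 1.39 and 1.33 CPM between 5 and 20. The bins from 40 to 60 held 22 to 50 cells each, and there the libraries differed most.

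**Figure D3:**
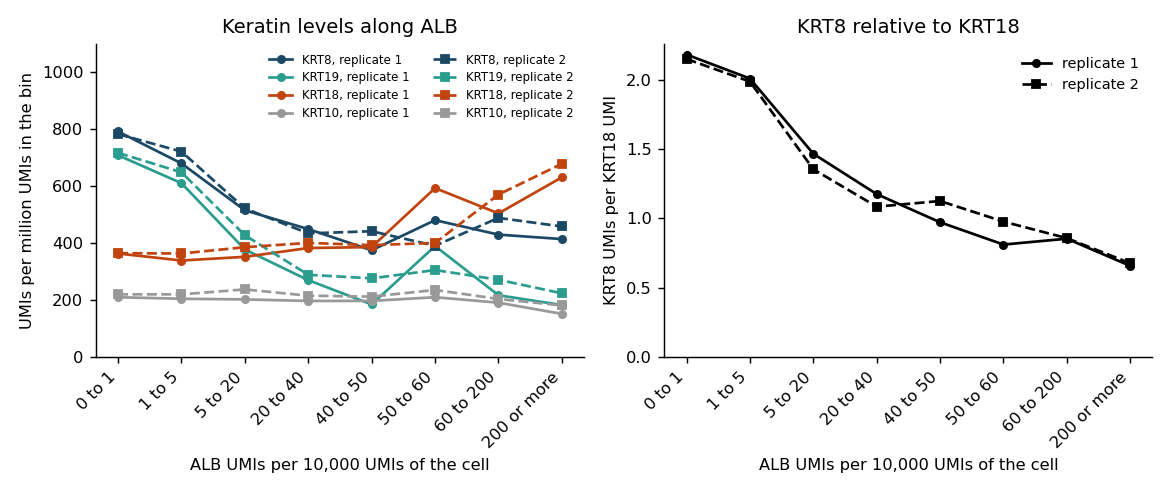
Left, level of KRT8, KRT19, KRT18 and KRT10 (CPM) in bins of cells by ALB UMIs per 10000; right, KRT8 UMIs per KRT18 UMI in the same bins; solid lines are replicate 1 and dashed lines replicate 2. KRT8 and KRT19 fall from the lowest bins on, KRT18 is highest in the top bin, and the ratio ends at 0.656 and 0.675.

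In matrix-high cells KRT8 and KRT19 were above their level in remaining cells, and KRT18 was slightly below. Of 7 members tested, 3 were higher (14.1% of all genes were called higher) and 1 was lower (13.3% of all genes). KRT19 had 937 and 920 CPM in matrix-high cells, against 582 and 592 CPM in remaining cells, a log2 fold change of 0.65 ± 0.05 (edgeR adjusted p = 4.9e-12). KRT8 had 904 and 885 CPM in matrix-high cells and 701 and 694 CPM in remaining cells, a log2 fold change of 0.34 ± 0.04 (edgeR adjusted p = 2.6e-07). KRT18 had 324 and 345 CPM in matrix-high cells and 368 and 373 CPM in remaining cells, a log2 fold change of -0.17 ± 0.04 (edgeR adjusted p = 0.0037; -0.33 with the top 10% by matrix score). In none of these genes did the libraries of the groups overlap, but the spread between libraries may be technical. The share of all genes without overlap was not computed. ALB itself had 87.9 and 120 CPM in matrix-high cells and 311 and 361 CPM in remaining cells. KRT8 and KRT19 fell along ALB below the cut, and the part of ALB in these differences was not tested.

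KRT81 had 23.7 and 24.9 CPM in matrix-high cells and 20.4 and 16.2 CPM in remaining cells (log2 fold change 0.36 ± 0.10, edgeR adjusted p = 0.0056). DESeq2 did not call it (adjusted p = 0.98), and it was lost in 4 of 12 tested alternatives in all, with adjusted p between 0.00053 and 0.98. KRT7 (4.91 and 4.28 CPM in matrix-high cells, 3.96 and 4.15 CPM in remaining cells), KRT80 and KRT10 did not pass, with edgeR adjusted p of 0.50, 0.42 and 0.96. Directly compared, ALB-high cells had 1 keratin above matrix-high cells (27.5% of all genes were called higher) and 4 below (29% of all genes were called lower). The log2 fold changes were 0.92 ± 0.05 for KRT18 (edgeR adjusted p = 6.5e-17), -0.85 ± 0.05 for KRT8, -1.81 ± 0.05 for KRT19, -2.56 ± 0.41 for KRT7 and -4.65 ± 0.31 for KRT81. The level of KRT81 in ALB-high cells rests on the 11 UMIs given above, and the log2 ratio was -7.23 in replicate 1 alone and -3.69 in replicate 2 alone.

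All kept cells were divided into quintiles by the matrix score, and ALB-high cells were then left out of each. KRT19 had 532 and 516 CPM in the lowest quintile and 937 and 921 CPM in the highest. KRT8 had 669 and 650 CPM in the lowest and 904 and 884 CPM in the highest. KRT18 ran the other way, with 379 and 370 CPM in the lowest quintile and 324 and 344 CPM in the highest. For KRT8 and KRT19, more of the difference lay between quintiles 4 and 5 than over all lower steps together. The proliferation markers summed to 2104 and 2042 CPM in the lowest quintile and 2356 and 2561 CPM in quintile 3. They summed to 2263 and 2063 CPM in quintile 4 and 1987 and 2077 CPM in the highest. Their part in the keratin differences along the score was not tested, and neither was that of ALB below its cut.

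**Figure D4:**
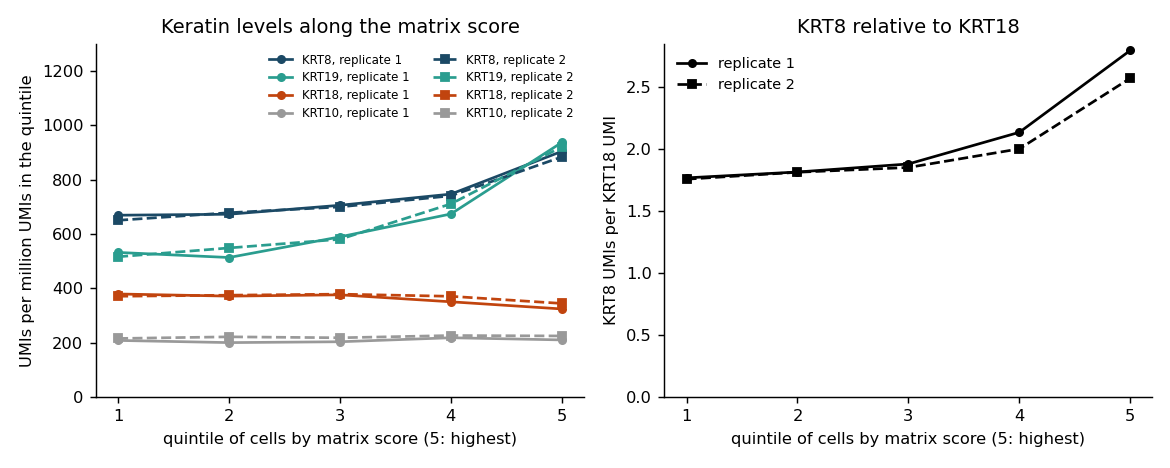
Left, level of KRT8, KRT19, KRT18 and KRT10 (CPM) in quintiles of all kept cells by matrix score, with ALB-high cells then left out. Right, KRT8 UMIs per KRT18 UMI. Solid lines are replicate 1 and dashed lines replicate 2. KRT19 and KRT8 are highest in the top quintile, at 937 and 921 CPM and at 904 and 884 CPM, while KRT10 stays between 200 and 226 CPM.

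Remaining cells were divided again by the proliferation markers, with the top 30% of each library called cycling-high. The 3 abundant keratins of simple epithelia were lower in them. KRT18 had 286 and 299 CPM in cycling-high cells, against 415 and 415 CPM in other remaining cells, a log2 fold change of -0.46 ± 0.02 (edgeR adjusted p = 9.2e-75). KRT19 had 454 and 446 CPM in cycling-high cells, against 655 and 673 CPM in the others (log2 fold change -0.51 ± 0.02). KRT8 had 622 and 622 CPM in cycling-high cells, against 747 and 733 CPM in the others (log2 fold change -0.20 ± 0.02, edgeR adjusted p = 1.4e-22; -0.32 over cells with at most 10% mitochondrial UMIs). The residual degrees of freedom of this fit were 1 and its spread came wholly from the trend over genes, so its p-values rest on all genes more than on the libraries.

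Of 7 members tested, 3 were lower in cycling-high cells (24.6% of all 18307 genes were called lower) and 2 were higher (25.6% of all genes were called higher). The higher ones were KRT10, with 214 and 224 CPM in cycling-high cells and 203 and 218 CPM in the others (log2 fold change 0.10 ± 0.03, edgeR adjusted p = 0.00082), and KRT81, with 22.5 and 18.5 CPM against 19.2 and 15.0 CPM (log2 fold change 0.30 ± 0.08, edgeR adjusted p = 0.00028). Neither passed in DESeq2 (adjusted p = 0.16 for both), and without the library as a block KRT10 did not pass in edgeR either (adjusted p = 0.065). With the top 15% in place of the top 30%, KRT81 was lower in cycling-high cells, with a log2 fold change of -0.36 (edgeR adjusted p = 0.0056), so no direction is given for it. Cycling-high cells were also deeper, with medians of 22267 and 12894 UMIs against 16496 and 9681 UMIs in the others.

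The keratins differed in the spread of their UMIs over cells. In cells thinned to 4000 UMIs the variance over the mean of the UMIs per cell, which is 1 for counts that vary by sampling alone, was 5.17 and 5.61 for KRT19, 3.35 and 2.81 for KRT81, 1.99 and 2.04 for KRT8, 1.93 and 1.89 for KRT18 and 1.09 and 1.05 for KRT10. KRT19 ranged from 0 to 50 and 44 UMIs per thinned cell, and the top 10% of cells held 42.8% and 43.5% of its UMIs. KRT81 was found in few cells: 3.67% and 3.66% of thinned cells had a UMI, with up to 9 and 11 UMIs in 1 cell. For KRT10 the variance over the mean was close to 1. That ratio also rises with the mean of a gene, so it does not rank genes of unlike level by unevenness. Mean UMIs per thinned cell were 2.55 and 2.56 for KRT19, 2.92 and 2.85 for KRT8, and 0.070 and 0.061 for KRT81.

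Correlations over cells of ln(1 + UMIs per 10000), computed in each library against 10239 genes, describe which genes had like patterns; the points share their library and their depth, and thinning lowered every value. KRT8 and KRT19 had r of 0.47 and 0.42, KRT8 and KRT18 0.43 and 0.35, and KRT18 and KRT19 0.25 and 0.21 in replicates 1 and 2. After thinning to 4000 UMIs these were 0.29 and 0.29, 0.23 and 0.22, and 0.16 and 0.17. Within remaining cells alone, KRT8 and KRT18 reached 0.50 and 0.41, above their value over all cells.

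The 5 genes most like KRT8 were ACTB, KRT19, TPM4, LGALS1 and ACTG1, of which ACTB and ACTG1 are the cytoplasmic actins and TPM4 a tropomyosin that binds actin filaments. ACTB had r of 0.56 and 0.49 with KRT8. The genes most like KRT19 were KRT8, LGALS1, PRSS23, TMSB4X and CAV1, and those most like KRT18 were KRT8, KRT19, TPM1, IL32 and HIF1A. KRT10 had no close match: its highest was DYNLL1, with 0.20 and 0.16. For KRT81, which is detected in too few cells for the rule and was added after its spread was seen, POSTN, which encodes a secreted protein of the matrix, was among the most alike (0.27 and 0.26). ORM1, an acute-phase protein made by hepatocytes, was lowest for KRT8 (-0.34 and -0.33) and KRT19 (-0.38 and -0.36).

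The 7 other keratins that reached 1 CPM in a library were lower in ALB-high than in remaining cells in 6 of 7 cases (27.8% of all genes were called lower). Over cells with at most 10% mitochondrial UMIs, where ALB-high cells have few UMIs, the calls of KRT14 and KRT17 were lost (edgeR adjusted p = 0.12 and 0.11) and KRT5 stood at -4.22 on the log2 scale. KRT5, the type II keratin of basal epithelia, had 4.11 and 2.61 CPM in ALB-high cells and 11.5 and 10.6 CPM in remaining cells (log2 fold change -1.55 ± 0.20, edgeR adjusted p = 6.9e-08). Its basal partner KRT14 had 0.283 and 0 CPM in ALB-high cells, 4.31 and 5.16 CPM in matrix-high cells and 0.811 and 1.24 CPM in remaining cells. KRT14 and KRT17, a keratin of activated epithelia, were both higher in matrix-high than in remaining cells, with log2 fold changes of 2.22 ± 0.23 and 1.26 ± 0.12 (edgeR adjusted p = 6.3e-09 and 1.6e-09), that of KRT14 being 1.204 with the top 10% by matrix score and 1.43 in thinned cells; KRT17 had 12.9 and 13.2 CPM in matrix-high cells and 5.49 and 5.22 CPM in remaining cells. KRT4, KRT34, KRT86 and KRT222 had at most 12.3 CPM in any group.

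Genes around the keratin filament were taken as lists, and their counts stand beside the shares of all genes called: 28% higher and 27.8% lower in ALB-high cells, 14.1% and 13.3% in matrix-high cells and 25.6% and 24.6% in cycling-high cells. Of 8 tested genes for other intermediate filaments, 8 were lower in ALB-high than in remaining cells (4 over cells with at most 10% mitochondrial UMIs), with a median log2 fold change of -1.20 against -0.01 over all 17193 genes. LMNA, which encodes the A-type nuclear lamins, had 324 and 332 CPM in ALB-high cells and 616 and 615 CPM in remaining cells (log2 fold change -0.77 ± 0.04, edgeR adjusted p = 2.5e-15). LMNB1, the B1 lamin gene, had 21.4 and 21.1 CPM in ALB-high cells and 60.3 and 61.7 CPM in remaining cells, and it was higher in cycling-high cells by 1.67 ± 0.05 on the log2 scale. VIM, the mesenchymal vimentin gene, had few UMIs throughout, which is not read as absence. It had 0.995 and 0.389 CPM in matrix-high cells against 2.97 and 3.15 CPM in remaining cells.

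Desmosomes anchor keratin filaments at the cell border. Of 11 tested desmosome and plakin genes, 6 were higher and 4 lower in ALB-high than in remaining cells (median log2 fold change 0.28), against 28% and 27.8% of all genes. Over cells with at most 10% mitochondrial UMIs, 2 were higher and 2 lower. DSP, desmoplakin, which ties keratin to the desmosome, had 218 and 209 CPM in ALB-high cells and 161 and 154 CPM in remaining cells (log2 fold change 0.57 ± 0.04, edgeR adjusted p = 4.8e-14). The plakophilin gene PKP2 was higher by 1.05 ± 0.09, while the desmosomal cadherin gene DSG2 had 70.4 and 70.5 CPM in ALB-high cells and 142 and 136 CPM in remaining cells (log2 fold change -0.85 ± 0.05). In matrix-high cells, 1 of the 11 was higher (0 without the library as a block) and 4 were lower (14.1% and 13.3% of all genes), with log2 fold changes of -0.28 ± 0.03 for DSP (-0.44 with the top 10% by matrix score) and -0.84 ± 0.10 for PKP2.

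Of 19 keratin-binding and keratin-modifying genes, 5 were higher and 12 lower in ALB-high than in remaining cells (median log2 fold change -0.35), so the share higher was near the 28% of all genes and the share lower above the 27.8%. Without the library as a block 3 were higher, and over cells with at most 10% mitochondrial UMIs 2 were higher and 6 lower. HSPB1, a small heat shock protein gene, had 124 and 120 CPM in ALB-high cells and 297 and 290 CPM in remaining cells (log2 fold change -1.13 ± 0.05, edgeR adjusted p = 1.3e-17). SQSTM1, whose product p62 is found with keratins in the Mallory-Denk bodies of injured hepatocytes, had 361 and 352 CPM in matrix-high cells and 442 and 454 CPM in remaining cells (log2 fold change -0.35 ± 0.04, edgeR adjusted p = 2.2e-07). In cycling-high cells 13 of the 19 were higher and 3 lower (25.6% and 24.6% of all genes), with YWHAH, a 14-3-3 protein gene, higher by 1.01 ± 0.04.

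Of 15 tested epithelial junction and identity genes, 10 were higher and 2 lower in ALB-high cells (median log2 fold change 1.19), and 0 were higher and 10 lower in matrix-high cells (median -0.51), each against remaining cells. The shares over all genes were 28% and 27.8% in ALB-high cells and 14.1% and 13.3% in matrix-high cells. The count higher in ALB-high cells was 6 over cells with at most 10% mitochondrial UMIs, and the count lower in matrix-high cells was 4 with DESeq2 and 6 in thinned cells. CLDN1, a tight junction claudin gene, had 168 and 166 CPM in ALB-high cells, 12.2 and 15.2 CPM in matrix-high cells and 24.7 and 26.5 CPM in remaining cells. Its log2 fold changes were 2.85 ± 0.06 and -0.94 ± 0.09 (edgeR adjusted p = 3.8e-27 and 4.8e-10). KRT8 and KRT19 had the opposite sign to CLDN1 in both comparisons.

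The list of biliary and progenitor genes outside the 8 keratins was divided in ALB-high cells, with 8 of 14 tested genes higher and 5 lower than in remaining cells (28% and 27.8% of all genes), and 4 and 2 over cells with at most 10% mitochondrial UMIs. ONECUT1, a liver and biliary transcription factor gene, had 49.0 and 47.7 CPM in ALB-high cells and 0.700 and 0.902 CPM in remaining cells. CD24, a progenitor surface protein gene, had 130 and 138 CPM in ALB-high cells and 196 and 196 CPM in remaining cells (log2 fold change -0.42 ± 0.04, edgeR adjusted p = 2.3e-10). Over cells with at most 10% mitochondrial UMIs the CD24 difference was -0.034 and did not pass (edgeR adjusted p = 0.84). Of 14 mesenchymal transition genes, 1 was higher and 13 lower in ALB-high cells (7 lower over cells with at most 10% mitochondrial UMIs), and 10 were higher and 0 lower in matrix-high cells (14.1% and 13.3% of all genes), where MMP2, a matrix-degrading enzyme gene, had 43.4 and 38.8 CPM against 13.3 and 13.7 CPM in remaining cells. Of 18 transcription factors of keratin promoters, 6 were higher and 5 lower in ALB-high cells, shares near the 28% and 27.8% of all genes, with a median log2 fold change of -0.003 (2 and 2 over cells with at most 10% mitochondrial UMIs); FOS, an AP-1 subunit gene, was higher by 1.32 ± 0.11 (edgeR adjusted p = 1.8e-11), and KLF5 was lower, with a log2 fold change of -1.37 ± 0.18 (edgeR adjusted p = 1.7e-07; -2.45 in thinned cells).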

How the data were processed

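The deposited files hold raw UMI counts per barcode and gene, made with Cell Ranger (7.0.0 per the file headers); the submitters' processing notes name STAR and GRCh38, while for the annotation release and intronic reads the processing was not given in the sources used here. The deposited totals were 85475317 and 57246647 UMIs in 4591 and 4998 barcodes; 10 barcode sequences occur in both libraries. Barcodes with at least 500 genes, 1000 UMIs and at most 25% mitochondrial UMIs were kept, 4454 and 4894. No doublet caller and no removal of free RNA was used; leaving out the 5% deepest cells is an alternative. The 12 antibody features held 0 UMIs.

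Counts were summed per library and cell group and tested with edgeR 4.0.16 (R 4.3.3; filterByExpr, TMM, quasi-likelihood, library as block, Benjamini-Hochberg, threshold 0.05). The 6 sums of the main groups left 2 residual degrees of freedom; DESeq2 1.42.0 was an alternative. ALB and the 4 matrix genes, and for cycling-high cells the 11 proliferation genes, were left out of counts of calls. SEs were derived from each log2 fold change and its F statistic. The numbering of replicates pairs cell groups by construction, since groups of 1 number come from 1 library. Cell groups and tested genes come from the same counts, so p-values describe these 2 libraries. The fit and the correlations were tested on simulated data. Genes named in the text are the members, the 5 genes most alike, other keratins at 1 CPM, rule genes and markers and, of each list, the 3 most abundant genes and those with the largest called rise and fall; not all are printed. The members and lists were chosen with earlier results of these data known. GGT1, which 2 gene IDs share, was not used.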

Additional observations from a re-analysis of the deposited data

How the results depend on the processing

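Of 293 recomputed fold changes of the 7 tested keratins that have a test, 273 kept their direction and their side of the threshold, 10 lost the call and 10 changed sign. The calls of KRT8, KRT18 and KRT19 held in all 4 comparisons under every alternative with a test. The exceptions were KRT81 in matrix-high and cycling-high cells, KRT10 in every comparison but ALB-high against remaining cells, and KRT7 in cycling-high cells. The fold changes of KRT10, and of KRT7 in cycling-high cells, are near 0. The 273 take in KRT7 in ALB-high cells with at most 10% mitochondrial UMIs, where 0 UMIs in both libraries leave no usable size. Of 56 values from a single library, which have no test, 5 had the other sign, in KRT10, KRT7 and KRT80, none of them called there; KRT80 in ALB-high against matrix-high cells was -2.34 in replicate 1 alone and 0.99 in replicate 2 alone. The number of keratins higher in cycling-high cells was 2 and became 0 with DESeq2, 0 with cells thinned to 4000 UMIs, 0 with cells of at most 10% mitochondrial UMIs, 1 with the top 15% by proliferation score and 1 without the replicate block, where KRT10 was lost (adjusted p = 0.065). The block changed no other call of a keratin. KRT81 in cycling-high cells was -0.12 with at most 10% mitochondrial UMIs and -0.36 with the top 15%, and KRT7 was -0.096 and -0.00015 there. KRT10 in matrix-high cells was -0.0063 with DESeq2, -0.023 with the top 10% by matrix score, -0.00035 with at most 10% mitochondrial UMIs, -0.026 with no filter on low counts and -0.014 without the top 30% by proliferation score, where it was 0.010 in ALB-high against matrix-high cells. The cause was not tested for any of these.

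Of 616 recomputed counts over the gene lists, 99 moved by over 1.5 times, 91 of them to fewer genes; 25 did so with at most 10% mitochondrial UMIs, 22 with thinning and 20 with DESeq2. Of 620 recomputed fold changes of other named genes, 41 lost the call. Counts over all genes were smaller in some settings. With DESeq2, 779 genes were higher and 720 lower in matrix-high cells (2423 and 2292 with edgeR), and 2244 higher and 1530 lower in cycling-high cells (4681 and 4509). Thinning, which leaves fewer UMIs, gave 2901 higher and 2727 lower in ALB-high against remaining cells, 1350 and 1104 in matrix-high cells, 2864 and 2911 in ALB-high against matrix-high cells, and 2763 and 2476 in cycling-high cells. With at most 10% mitochondrial UMIs, which leaves fewer cells, they were 2090 and 2224 in ALB-high against remaining cells and 2144 and 2337 against matrix-high cells. KRT8 per KRT18 UMI in ALB-high cells was 0.871 with the ALB threshold at 20, 0.740 at 100 and 0.912 with at most 10% mitochondrial UMIs. In matrix-high cells the ratio was 3.29 with the top 10% by matrix score, 2.49 with the top 30% and 2.85 with at most 10% mitochondrial UMIs. In remaining cells it was 1.775 without the top 30% by proliferation score and 2.04 with at most 10% mitochondrial UMIs. With either replicate left out, counts of calls were not recomputed. Depth limits KRT7, KRT23, KRT80 and KRT81 in ALB-high cells, where each has at most 10 UMIs in a library.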
